A study of Mus musculus with 18 samples.

Results

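The 40 genes described here encode the enzymes that build cholesterol and long-chain fatty acids, the proteins that regulate the sterol enzymes, and a small group of carriers that move cholesterol within or out of the cell. They were taken from a list of gene names, and a gene was kept where 3 or more of the 18 arrays detected a probe of that name (detection p under 0.05). 35 of the 40 passed, out of 16446 genes with such a probe on the whole array. They comprised 16 of 18 sterol synthesis enzymes, all 5 sterol regulators, 10 of 12 fatty acid synthesis genes and 4 of 5 transport and efflux genes. HMGCS1, FDFT1, ME1 and ACACA were names that the table did not hold, and ABCA1, a cholesterol exporter, had 1 probe that was detected on too few arrays.

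Cholesterol is made from acetyl-CoA through mevalonate, the isoprenoid diphosphates, squalene and lanosterol, in a long chain of enzymes that mostly sit in the endoplasmic reticulum. The transcription factor SREBF2 drives most of these enzymes, SREBF1 drives fatty acid synthesis more than sterol synthesis, SCAP carries both factors to the Golgi when sterol is low, and INSIG1 and INSIG2 hold them back when sterol is plentiful. Cells also take up cholesterol from lipoproteins through receptors, move it with soluble carriers, and send it out through ABC transporters.

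RNA was taken after 3 days from ES/PA6 co-cultures, in which murine embryonic stem (ES) cells that carry a τ-EGFP knock-in lay on a monolayer of PA6 cells, and from PA6 mono-cultures. PA6 is a murine stromal line of preadipocyte type, used as a feeder layer, and all cultures were kept in serum-free medium. Each kind of culture was left without growth factors (-GFs), given 20 ng/ml FGF2, or given 10 ng/ml BMP4 (the dose in the labels, while the study's methods name a lower one for slide cultures), from the onset of culture, which makes 6 groups of 3 biological replicates, with a well per condition in each replicate. A co-culture array measures ES and PA6 RNA together, so that fewer cells of a type and less RNA per cell cannot be told apart.

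Levels are normalised log2 intensities, compared between arrays for a gene and not between genes, and changes are log2 fold changes ± SE unless given as a fold. A gene is called where the limma fit gave an adjusted p under 0.1 and a log2 fold change above 1 in size, and it passed the adjusted p alone where only the first held. 19365 to 20412 probes passed detection per array in the co-cultures and 17125 to 18391 in PA6 mono-cultures, and under FGF2 and BMP4 867 and 232 genes were called in PA6 mono-cultures, against 550 and 125 in the co-cultures, of which the last was 52 without -GFs replicate 2. All 9 pluripotent cell markers of a fixed list were detected on every co-culture array, and of these POU5F1 alone was detected on all 9 PA6 arrays, at 6.86 ± 0.25 (SD, n = 3) in -GFs medium against 13.19 ± 0.17 in the co-cultures. The mean of 8 stromal cell markers was 1.40 log2 units lower in the -GFs co-cultures than in the -GFs mono-cultures.

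Promoters of 4 sterol enzymes are shown because the enzymes of this branch moved together in PA6 mono-cultures. MVD had the largest rise under FGF2, CYP51 and HSD17B7 were among the next, and EBP was the tested enzyme that FGF2 did not call. Each run holds the 250 bases before the RefSeq transcription start, 5′ to 3′ on the strand of the gene (the minus strand for all 4), on the build GRCm38.p6, and the capitals mark CCAAT or its reverse complement ATTGG, the letters bound by NF-Y, a factor that acts beside SREBF2. They lie at chr8:122443423-122443672, chr5:4104698-4104947, chr1:169969206-169969455 and chrX:8193513-8193762.
MVD: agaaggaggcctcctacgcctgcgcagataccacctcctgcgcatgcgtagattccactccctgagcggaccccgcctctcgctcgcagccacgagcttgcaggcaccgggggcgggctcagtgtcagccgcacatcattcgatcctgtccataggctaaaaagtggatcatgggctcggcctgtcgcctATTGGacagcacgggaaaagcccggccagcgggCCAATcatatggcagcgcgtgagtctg
CYP51: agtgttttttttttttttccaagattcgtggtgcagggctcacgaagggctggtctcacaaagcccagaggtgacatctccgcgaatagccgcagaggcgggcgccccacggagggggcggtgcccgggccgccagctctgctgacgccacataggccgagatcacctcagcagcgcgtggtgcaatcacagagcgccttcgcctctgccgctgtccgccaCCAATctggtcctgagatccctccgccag
HSD17B7: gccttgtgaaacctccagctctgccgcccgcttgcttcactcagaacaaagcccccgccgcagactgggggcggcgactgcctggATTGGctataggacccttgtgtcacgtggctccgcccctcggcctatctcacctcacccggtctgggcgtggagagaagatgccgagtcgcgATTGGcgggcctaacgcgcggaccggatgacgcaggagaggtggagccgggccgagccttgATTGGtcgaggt
EBP: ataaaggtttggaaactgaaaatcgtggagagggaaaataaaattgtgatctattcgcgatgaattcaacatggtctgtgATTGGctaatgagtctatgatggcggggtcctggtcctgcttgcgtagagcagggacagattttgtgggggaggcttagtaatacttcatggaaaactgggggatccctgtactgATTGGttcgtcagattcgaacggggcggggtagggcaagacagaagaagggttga
Counted from the start, MVD held 2 such matches, at -60 and -27, CYP51 held 1 at -29, HSD17B7 held 3 at -165, -73 and -12, and EBP held 2 at -170 and -55. Of the 16 tested sterol enzymes, 14 matched a RefSeq promoter, 13 of these 14 held CCAAT on either strand, and 13 of their 17 promoters, or 76.5%, did so, against 33.8% of all 32851 promoters and 35.4% of the 12528 promoters of genes with a detected probe. The GC box GGGCGG was in 14 of the 17, or 82.4%, against 32.7% and 55.7%. The sterol regulatory element, spelled TCACNCCAC, was in none of the 35 promoters of 27 members, against 1.05% of all promoters and 0.99% of those of genes with a detected probe. Its core CACCCCAC was in that of ACAT2 alone, against 2.58% and 2.84%, and the E-box CACGTG was in 6 of the 35, against 6.02% and 8.07%. The element and its core are so rare in this spelling that 35 promoters are too few to show a difference. All motifs were searched on both strands, the TCACNCCAC and CACCCCAC matches can overlap, and a match is a run of letters, not a measured binding site.

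**Figure D1:**
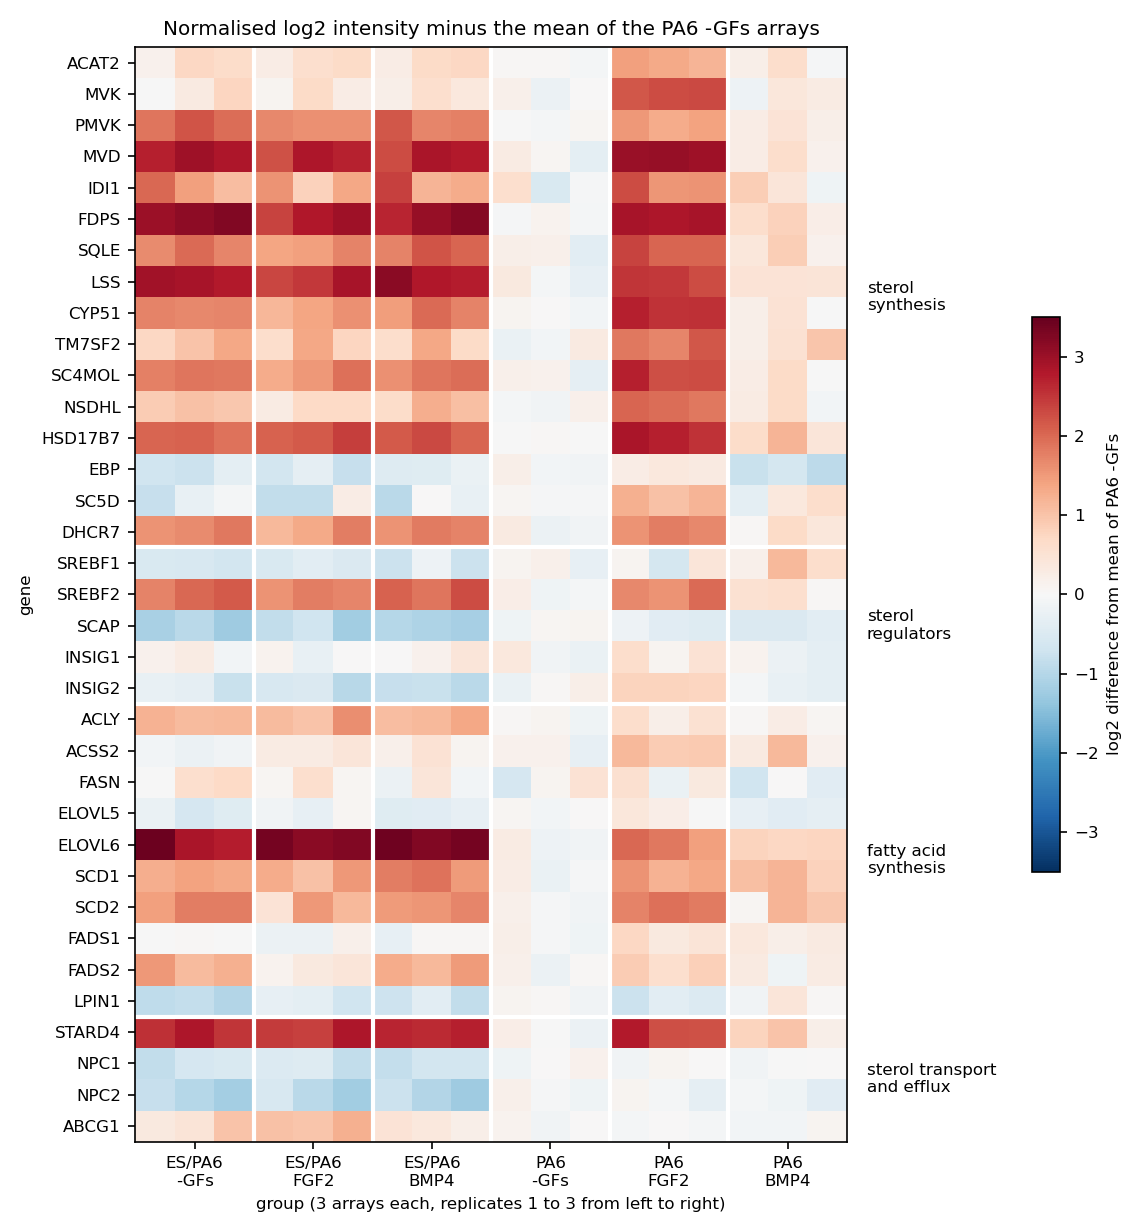
Heat map of the 35 genes (rows, by branch and in pathway order) on the 18 arrays (columns, by group), coloured by the normalised log2 intensity minus the mean of that gene over the 3 PA6 -GFs arrays. The sterol synthesis rows are red in PA6 mono-cultures with FGF2 and in all 3 co-culture groups, except EBP and SC5D, which are blue to pale in the co-cultures, and ACAT2, MVK, TM7SF2 and NSDHL, which are pale red there, and they are pale in PA6 mono-cultures with BMP4.

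The branches differed in how they varied over the 6 groups. The mean of the 16 sterol enzymes, set to 0 in PA6 -GFs, was 2.000 ± 0.08 log2 units (SD, n = 3 arrays) in PA6 with FGF2 and 0.31 ± 0.20 with BMP4, and in the co-cultures it was 1.45 ± 0.09 in -GFs medium, 1.26 ± 0.19 with FGF2 and 1.47 ± 0.12 with BMP4. The 3 PA6 arrays with FGF2, at 1.95 to 2.09, lay above all 9 co-culture arrays, which ran from 1.06 to 1.58, and the 3 co-culture groups overlapped. The mean of the 10 fatty acid genes was 0.76 ± 0.12 in PA6 with FGF2, 0.30 ± 0.14 with BMP4, and 0.74 ± 0.01, 0.71 ± 0.09 and 0.83 ± 0.08 in the co-cultures in -GFs medium, with FGF2 and with BMP4, so that in this branch the PA6 arrays with FGF2 lay among the co-culture arrays. The 4 transport and efflux genes gave 0.57 ± 0.11 in PA6 with FGF2 and 0.39 ± 0.08 in the -GFs co-cultures, and STARD4 was the largest contributor in both. The 5 regulators gave 0.51 ± 0.19 in PA6 with FGF2 and -0.01 ± 0.11 in the -GFs co-cultures, where SREBF2 and SCAP lay on opposite sides. These means describe the arrays and carry no test.

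**Figure D2:**
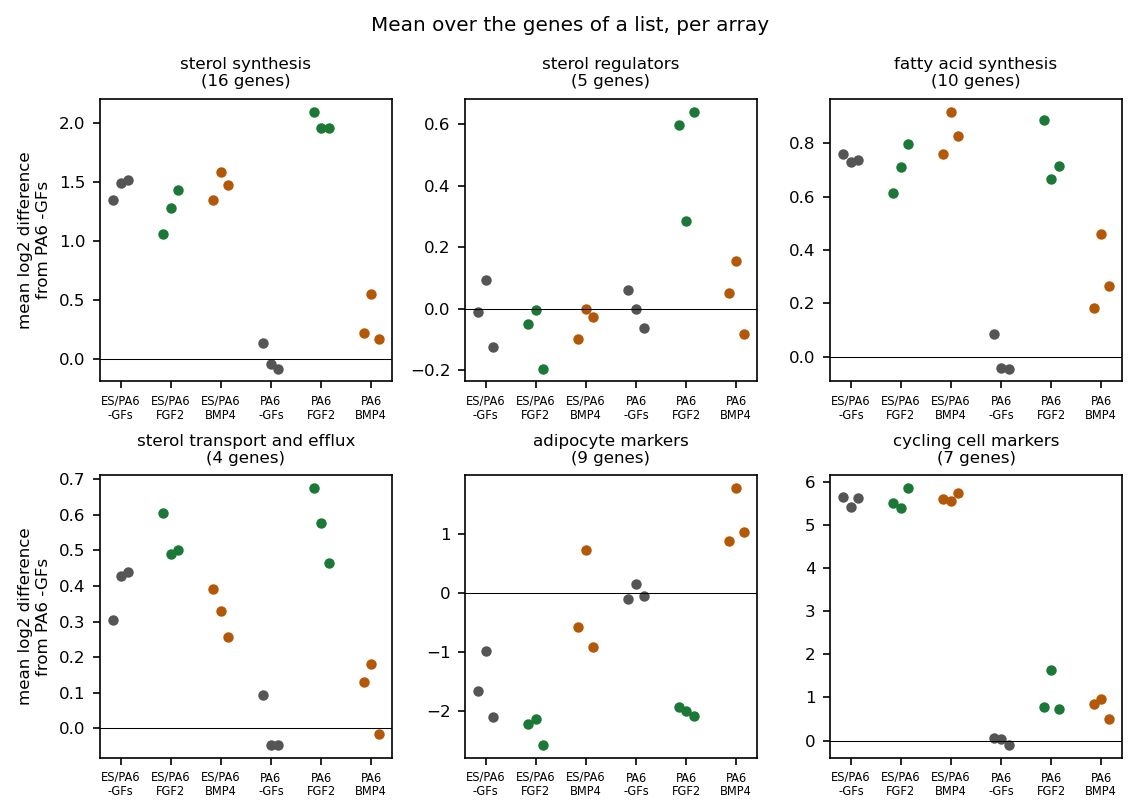
Mean over the genes of a list on each of the 18 arrays (points, 3 per group), as the log2 difference from the mean of the PA6 -GFs arrays, for the 4 branches and for the adipocyte and cycling cell markers. The sterol synthesis mean is highest on the 3 PA6 arrays with FGF2, where the adipocyte mean lies near -2.01 and the cycling cell mean near 1.05.

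FGF2 raised almost the whole sterol branch in PA6 mono-cultures. Of the 16 tested enzymes, 15 were called higher and none lower, while 2.71% of all genes were called higher and 2.56% lower in this comparison. The 15 include MVK, which met the detection filter only through its FGF2 arrays. The median log2 fold change of the 16 was 2.05, or 1.93 with MVK at its bound, against -0.01 for all genes, and the adjusted p of the 15 was at most 0.019 (limma, Benjamini-Hochberg). Within each replicate number, the FGF2 array lay above the -GFs array in all 3 sets for 16 of the 16, a pattern that was not counted over all genes. The list was chosen with results of these arrays known, so its share is a description.

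In the mevalonate part of the pathway, ACAT2, the cytosolic thiolase that makes acetoacetyl-CoA, read 10.96, 10.95 and 10.84 in -GFs medium, 12.36, 12.25 and 12.10 with FGF2 and 11.13, 11.53 and 10.87 with BMP4. Its FGF2 arrays lay above the other 6, a rise of 1.32 ± 0.19 (log2 fold change ± SE) over -GFs medium. MVK, which phosphorylates mevalonate, read 5.45, 5.08 and 5.29 in -GFs medium, 7.45, 7.57 and 7.59 with FGF2 and 5.09, 5.68 and 5.56 with BMP4, and the probe was not well above background on any array of the -GFs and BMP4 groups. All 3 FGF2 arrays detected it, so its rise was at least 2.35-fold (adjusted p 1.84e-06, limma). PMVK, the next kinase, read 7.40, 7.36 and 7.49 in -GFs medium, 8.93, 8.70 and 8.83 with FGF2 and 7.67, 7.89 and 7.63 with BMP4. FGF2 raised it by 1.40 ± 0.14, with no overlap. MVD, the decarboxylase that yields isopentenyl diphosphate, read 7.93, 7.70 and 7.30 in -GFs medium, 10.68, 10.70 and 10.62 with FGF2 and 7.92, 8.27 and 7.79 with BMP4. The FGF2 arrays lay more than 2 log2 units above the other 6, and the rise of 3.02 ± 0.20, or 8.12-fold, was the largest of the 35 genes (adjusted p 4.36e-08). IDI1, the isomerase of that product, read 6.45, 5.33 and 5.82 in -GFs medium, 8.15, 7.43 and 7.45 with FGF2 and 6.72, 6.30 and 5.72 with BMP4, and was detected on 1 of the 3 -GFs arrays. Its arrays spread widely, and the rise of 1.81 ± 0.37 had the largest standard error of the branch.

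From farnesyl diphosphate to lanosterol, FDPS, which joins the isoprenoid units, read 10.74, 10.89 and 10.69 in -GFs medium, 13.65, 13.61 and 13.65 with FGF2 and 11.38, 11.58 and 11.01 with BMP4. The 3 FGF2 arrays fell within 0.1 of each other and the rise was 2.87 ± 0.18, or 7.29-fold, and a further FDPS probe gave 2.503. SQLE, the squalene epoxidase and a rate-limiting step of the branch, read 10.94, 10.90 and 10.35 in -GFs medium, 13.09, 12.77 and 12.77 with FGF2 and 11.12, 11.58 and 10.86 with BMP4. It rose by 2.15 ± 0.20 under FGF2, without overlap. LSS, which folds the epoxide into lanosterol, read 7.996, 7.59 and 7.35 in -GFs medium, 10.16, 10.11 and 9.93 with FGF2 and 8.13, 8.13 and 8.11 with BMP4. Both factors set its arrays apart from -GFs medium, FGF2 by 2.42 ± 0.17 and BMP4 by 0.48 ± 0.17, and of these the FGF2 difference passed the test.

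After lanosterol, CYP51, the lanosterol demethylase, read 9.66, 9.60 and 9.47 in -GFs medium, 12.30, 12.10 and 12.13 with FGF2 and 9.79, 10.08 and 9.57 with BMP4. FGF2 raised it by 2.60 ± 0.16, or 6.07-fold (adjusted p 2.9e-08), and the BMP4 arrays overlapped those in -GFs medium. TM7SF2, a sterol reductase, read 6.05, 6.18 and 6.58 in -GFs medium, 8.13, 7.98 and 8.45 with FGF2 and 6.47, 6.81 and 7.24 with BMP4, and was detected on 1 of the 3 -GFs arrays. Its FGF2 arrays lay above the rest, by 1.92 ± 0.26 over -GFs medium. SC4MOL, the sterol methyl oxidase now named Msmo1, read 10.81, 10.79 and 10.33 in -GFs medium, 13.35, 12.91 and 12.94 with FGF2 and 10.91, 11.31 and 10.64 with BMP4. It rose by 2.42 ± 0.20, with no overlap. NSDHL, which acts with it in removing methyl groups, read 9.15, 9.10 and 9.38 in -GFs medium, 11.26, 11.16 and 11.06 with FGF2 and 9.51, 9.87 and 9.12 with BMP4. The rise was 1.95 ± 0.19 for the probe used, and the 3 other NSDHL probes gave 2.18, 2.24 and 2.06. HSD17B7, the ketoreductase of the same complex, read 8.84, 8.89 and 8.83 in -GFs medium, 11.72, 11.57 and 11.39 with FGF2 and 9.50, 10.05 and 9.28 with BMP4. It rose by 2.71 ± 0.17 with FGF2, while a further HSD17B7 probe, detected on 8 of 18 arrays, gave -0.09 (adjusted p 0.842), so the probes disagree.

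EBP, the isomerase that shifts a ring double bond, read 11.46, 11.17 and 11.15 in -GFs medium, 11.51, 11.61 and 11.57 with FGF2 and 10.47, 10.65 and 10.35 with BMP4. FGF2 left it 0.31 ± 0.15 from -GFs medium (adjusted p 0.209) although those arrays did not overlap, and EBP was the only tested sterol enzyme whose level with BMP4 lay below all -GFs arrays. SC5D, the sterol desaturase, read 7.37, 7.25 and 7.27 in -GFs medium, 8.55, 8.33 and 8.48 with FGF2 and 6.94, 7.67 and 7.91 with BMP4. Its rise of 1.16 ± 0.31 was the smallest of the 15 calls (adjusted p 0.019), and without background correction it was 0.82, below the fold threshold. DHCR7, the last reductase of the pathway, read 6.82, 6.31 and 6.38 in -GFs medium, 8.09, 8.30 and 8.17 with FGF2 and 6.53, 7.17 and 6.90 with BMP4. It rose by 1.69 ± 0.19, with the FGF2 arrays above the other 6.

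**Figure D3:**
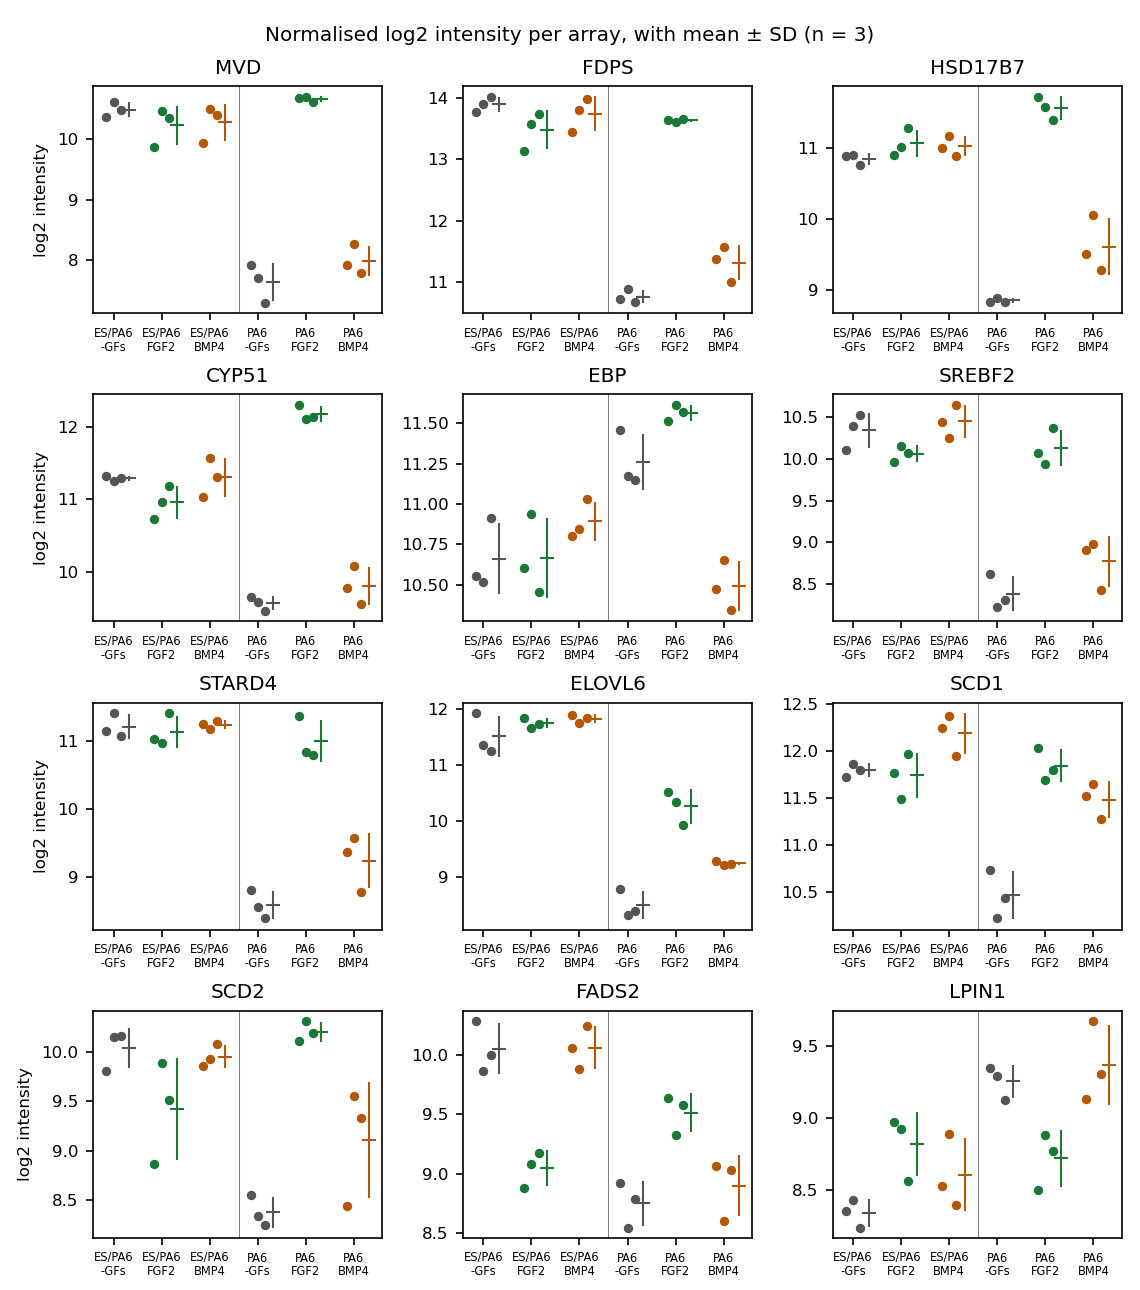
Normalised log2 intensity of 12 genes on each array (points, 3 per group), with the mean and SD of the group beside the points; co-cultures lie left and PA6 mono-cultures right of the grey line, and each panel has its own vertical scale. In PA6 mono-cultures with FGF2, MVD, FDPS, HSD17B7, CYP51, SREBF2 and STARD4 lie far above their -GFs arrays, EBP lies 0.31 above them, and LPIN1 lies below them.

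Among the regulators, FGF2 in PA6 mono-cultures called SREBF2 higher and no other. SREBF2, the main sterol transcription factor, read 8.62, 8.22 and 8.30 in -GFs medium, 10.07, 9.95 and 10.37 with FGF2 and 8.91, 8.98 and 8.42 with BMP4. Its FGF2 arrays stood clear of the others, a rise of 1.75 ± 0.18 (adjusted p 4.48e-06), and a further SREBF2 probe gave 1.13. INSIG2 passed the adjusted p alone with 0.77 ± 0.16 (9.19% of all genes passed it upwards in this comparison, called genes included). INSIG1 gave 0.40 ± 0.19 (adjusted p 0.207) for the probe used, and its 2 other probes gave 0.98 and 0.99 (adjusted p 0.000417 and 0.0126), so the result for INSIG1 depends on the probe. SREBF1 gave -0.04 ± 0.26 and SCAP -0.34 ± 0.14, and neither passed (adjusted p 0.959 and 0.134), but SCAP passed with the replicate block (adjusted p 0.0805).

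STARD4, a soluble sterol carrier, was the transport gene that changed. It read 8.80, 8.55 and 8.39 in -GFs medium, 11.37, 10.84 and 10.80 with FGF2 and 9.37, 9.57 and 8.78 with BMP4. FGF2 raised it by 2.42 ± 0.20, or 5.35-fold (adjusted p 7.84e-07), with all 3 arrays above the other 6. NPC1 and NPC2, which pass cholesterol out of lysosomes, differed from -GFs medium by 0.00 and -0.09 with FGF2, and neither passed. The exporter ABCG1 was not detected on any PA6 array, and no change is given for it there.

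The fatty acid branch rose less. Of 10 genes, 3 were called higher in PA6 mono-cultures with FGF2, 4 more passed the adjusted p alone upwards and 1 downwards (9.55% of all genes passed downwards), and the median change was 0.64. The 3 calls were in genes that elongate or desaturate fatty acids. ELOVL6, the elongase of saturated chains, read 8.79, 8.31 and 8.38 in -GFs medium, 10.52, 10.34 and 9.92 with FGF2 and 9.27, 9.21 and 9.23 with BMP4. It rose by 1.76 ± 0.18 (adjusted p 5.98e-06), whereas a further probe, detected on 8 of 18 arrays, gave 0.27 (adjusted p 0.724). SCD1, a stearoyl-CoA desaturase, read 10.73, 10.22 and 10.43 in -GFs medium, 12.04, 11.69 and 11.80 with FGF2 and 11.53, 11.65 and 11.27 with BMP4. Both factors raised SCD1 without overlap, FGF2 by 1.38 ± 0.17. SCD2, its paralogue, read 8.55, 8.34 and 8.24 in -GFs medium, 10.11, 10.31 and 10.19 with FGF2 and 8.44, 9.56 and 9.33 with BMP4. FGF2 raised SCD2 by 1.83 ± 0.26, and the BMP4 arrays spread over more than 1 log2 unit. FADS2, the first desaturase of polyunsaturated chains, read 8.92, 8.55 and 8.79 in -GFs medium, 9.63, 9.33 and 9.58 with FGF2 and 9.07, 8.60 and 9.03 with BMP4. It passed the adjusted p alone, with 0.76 ± 0.16. LPIN1, a phosphatidate phosphatase, read 9.34, 9.29 and 9.12 in -GFs medium, 8.50, 8.88 and 8.77 with FGF2 and 9.13, 9.67 and 9.30 with BMP4. It was the member that passed in the other direction, at -0.53 ± 0.17, and a further LPIN1 probe gave -0.78. ACSS2 (0.98) and ACLY (0.45), which supply acetyl-CoA, and FADS1 (0.51) passed the adjusted p alone, ELOVL5 (0.20) did not pass, and FASN, the fatty acid synthase, was detected on 1 of these 6 arrays, so that no change is given.

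Other genes of lipid metabolism, from a list of 49 of which 39 had a detected probe, changed in the same comparison in 8 cases, 7 higher and 1 lower, with a median change of 0.10. ACAT3, a close paralogue of ACAT2 in mouse, rose by 2.67 ± 0.22. Whether the ACAT2 and ACAT3 probes cross-hybridise was not tested. VLDLR rose at least 1.34-fold, the acyl-CoA synthetases ACSL3 and ACSL4 rose by 1.52 and 1.78, and CPT1A, which admits fatty acids to mitochondria for oxidation, fell by 1.70.

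Markers of other cell states moved in the same comparison. Of 9 adipocyte markers, 4 were called lower with FGF2 in PA6 mono-cultures and none higher, with CFD at -4.79 ± 0.73, ADIPOQ at -4.65 ± 0.66, LPL at -2.75 ± 0.30, and CIDEC, not detected on the FGF2 arrays, at least 21.5-fold lower. The mean level of the 9 ran from 6.84 to 6.99 with FGF2, from 8.83 to 9.07 in -GFs medium and from 9.80 to 10.69 with BMP4, and PLIN and PCK1 were not detected in -GFs medium. Of 7 cycling cell markers, 4 were called higher with FGF2 (TOP2A, CCNB1, CDC20 and AURKA), and their mean ran from 7.17 to 8.07 against 6.33 to 6.50. Of 8 stromal cell markers, THY1 and POSTN were called lower. With BMP4, 2 of the 7 cycling cell markers were called higher, where 0.839% of all genes were. The part of these shifts in the sterol result was not tested.

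**Figure D4:**
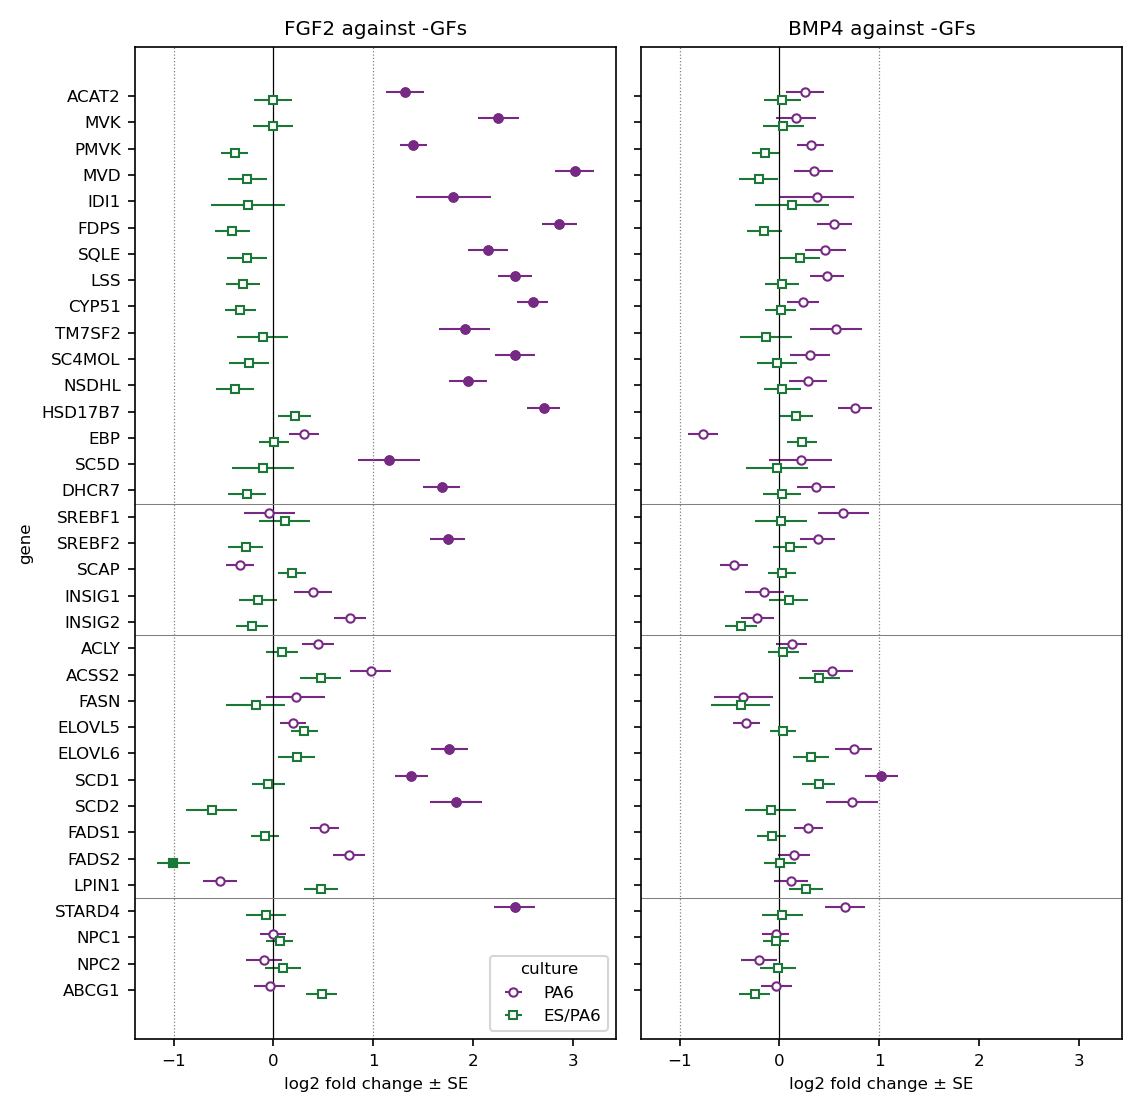
Log2 fold change ± SE of the 35 genes (rows, by branch) for FGF2 (left) and BMP4 (right) against -GFs medium, in PA6 mono-cultures (circles) and ES/PA6 co-cultures (squares); filled symbols are called, and dotted lines mark a change of 1. With FGF2, 20 circles are filled on the right of the line and 1 square, FADS2, on the left; with BMP4 the only filled symbol is SCD1 in PA6.

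In the ES/PA6 co-cultures, which received the same FGF2, no rise of the sterol branch was called. None of its 16 enzymes was called or passed the adjusted p alone (limma), 2 had an unadjusted p under 0.05 (17.8% of all genes did), and their changes ran from -0.41 to 0.21, with a median of -0.26 against -0.01 for all genes. In this comparison 2.14% of all genes were called higher and 1.2% lower. MVD read 10.36, 10.62 and 10.49 in -GFs medium, 9.87, 10.47 and 10.35 with FGF2 and 9.94, 10.51 and 10.41 with BMP4, and all 3 groups overlapped. FDPS read 13.77, 13.90 and 14.02 in -GFs medium, 13.13, 13.58 and 13.74 with FGF2 and 13.44, 13.81 and 13.99 with BMP4. Its FGF2 arrays lay below those in -GFs medium, by 0.41 ± 0.18 (adjusted p 0.224), and a fit blocked on replicate gave an adjusted p of 0.0495. CYP51 read 11.32, 11.25 and 11.30 in -GFs medium, 10.74, 10.96 and 11.18 with FGF2 and 11.03, 11.57 and 11.31 with BMP4. The FGF2 arrays again lay below those in -GFs medium, at -0.33 ± 0.16, and did not pass (adjusted p 0.286). HSD17B7 read 10.89, 10.91 and 10.76 in -GFs medium, 10.91, 11.01 and 11.28 with FGF2 and 11.002, 11.17 and 10.90 with BMP4, and was the only enzyme of the branch whose FGF2 arrays all lay above the -GFs arrays, by 0.21 ± 0.17 (adjusted p 0.589).

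For the rest of the branch the co-culture groups overlapped or were close. ACAT2 read 11.07, 11.65 and 11.56 in -GFs medium, 11.18, 11.51 and 11.59 with FGF2 and 11.17, 11.58 and 11.63 with BMP4, and the groups overlapped. MVK read 5.25, 5.60 and 6.02 in -GFs medium, 5.37, 5.95 and 5.54 with FGF2 and 5.48, 5.87 and 5.65 with BMP4, and was detected on 2 of these 9 arrays, so that no order is given. PMVK read 9.30, 9.62 and 9.38 in -GFs medium, 9.09, 9.02 and 9.02 with FGF2 and 9.60, 9.12 and 9.17 with BMP4, with the FGF2 arrays lowest. PMVK was thus the only enzyme of the branch whose FGF2 arrays lay apart from both other groups, and its change of -0.39 ± 0.14 did not pass (adjusted p 0.116). IDI1 read 7.87, 7.29 and 6.94 in -GFs medium, 7.45, 6.67 and 7.21 with FGF2 and 8.26, 7.07 and 7.16 with BMP4, with a wide spread within each group. SQLE read 12.38, 12.71 and 12.45 in -GFs medium, 12.10, 12.17 and 12.48 with FGF2 and 12.45, 12.93 and 12.78 with BMP4, and the FGF2 arrays overlapped both other groups. LSS read 10.58, 10.53 and 10.43 in -GFs medium, 9.97, 10.12 and 10.53 with FGF2 and 10.80, 10.44 and 10.38 with BMP4, and FGF2 again overlapped. SQLE and LSS changed by -0.26 ± 0.20 and -0.31 ± 0.17, and neither passed. TM7SF2 read 6.98, 7.26 and 7.62 in -GFs medium, 6.89, 7.63 and 7.02 with FGF2 and 6.89, 7.63 and 6.94 with BMP4, with full overlap. SC4MOL read 12.40, 12.52 and 12.49 in -GFs medium, 11.94, 12.15 and 12.58 with FGF2 and 12.25, 12.52 and 12.59 with BMP4, and the groups overlapped. NSDHL read 10.10, 10.23 and 10.16 in -GFs medium, 9.50, 9.91 and 9.91 with FGF2 and 9.84, 10.48 and 10.26 with BMP4, with the FGF2 arrays below the -GFs arrays by 0.39 (adjusted p 0.303). As with FDPS and CYP51, the groups of NSDHL stood apart without passing the test. EBP read 10.56, 10.51 and 10.91 in -GFs medium, 10.60, 10.94 and 10.45 with FGF2 and 10.80, 10.85 and 11.03 with BMP4, and the FGF2 and -GFs arrays overlapped. SC5D read 6.50, 7.03 and 7.24 in -GFs medium, 6.44, 6.45 and 7.56 with FGF2 and 6.36, 7.31 and 7.02 with BMP4, the widest spread of the late enzymes. DHCR7 read 8.08, 8.15 and 8.35 in -GFs medium, 7.63, 7.84 and 8.30 with FGF2 and 8.08, 8.32 and 8.24 with BMP4, with overlap.

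Of the regulators and carriers, SREBF2 read 10.11, 10.40 and 10.53 in -GFs medium, 9.96, 10.16 and 10.08 with FGF2 and 10.45, 10.25 and 10.65 with BMP4, and FGF2 overlapped -GFs medium. STARD4 read 11.14, 11.42 and 11.08 in -GFs medium, 11.03, 10.97 and 11.41 with FGF2 and 11.25, 11.18 and 11.30 with BMP4, with all 3 groups overlapping and a change of -0.07 ± 0.20 under FGF2. ABCG1 passed the adjusted p alone upwards with FGF2, at 0.48 ± 0.16 (adjusted p 0.0851, and 5.27% of all genes passed upwards), and was detected on all 3 FGF2 arrays, 1 of 3 in -GFs medium and none with BMP4. With no PA6 array detecting it, ABCG1 met the 3-array filter only through these FGF2 arrays. Its pass is therefore a description and no independent result. No other regulator or carrier passed.

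The gene called in the co-cultures was FADS2. It read 10.28, 9.87 and 10.001 in -GFs medium, 8.88, 9.08 and 9.17 with FGF2 and 10.06, 9.88 and 10.24 with BMP4. Its FGF2 arrays lay below both other groups, and it fell by 1.002 ± 0.16 from -GFs medium (adjusted p 0.00114), at the edge of the fold threshold. Without -GFs replicate 1 the change was -0.89, and without FGF2 replicate 1 it was -0.92, with adjusted p of 0.0061 and 0.00991, and a further FADS2 probe gave -0.99. ELOVL6 read 11.93, 11.36 and 11.24 in -GFs medium, 11.84, 11.66 and 11.72 with FGF2 and 11.89, 11.75 and 11.84 with BMP4, with overlap. SCD1 read 11.72, 11.87 and 11.80 in -GFs medium, 11.77, 11.49 and 11.97 with FGF2 and 12.25, 12.38 and 11.95 with BMP4, with the BMP4 arrays above those in -GFs medium by 0.40 ± 0.17 (adjusted p 0.375). SCD2 read 9.81, 10.16 and 10.16 in -GFs medium, 8.87, 9.89 and 9.51 with FGF2 and 9.86, 9.93 and 10.08 with BMP4, where FGF2 replicate 1 stood lowest of the 9 arrays. LPIN1 read 8.35, 8.43 and 8.24 in -GFs medium, 8.97, 8.92 and 8.56 with FGF2 and 8.53, 8.89 and 8.40 with BMP4, so that its FGF2 arrays lay above those in -GFs medium, by 0.48 ± 0.17 (adjusted p 0.118, and 0.0336 with the replicate block). With the block, 4 of the 35 genes passed the adjusted p alone or with the fold, against 2 without it, and FADS2 stayed the only call. In the co-cultures ADIPOQ was the only adipocyte marker called lower with FGF2, none of the 7 cycling cell markers was called, the mean of the 8 stromal cell markers was -1.93 ± 0.08 against -1.40 ± 0.11 in -GFs medium (relative to PA6 -GFs), and NANOG and ZFP42 of the 9 pluripotent cell markers were called higher and LIN28 lower, with no call among 3 neural and 5 endothelial markers. The part of these shifts in the lipid gene values was not tested.

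The difference of the FGF2 effects between the kinds of culture was tested as such, ES/PA6 minus PA6, on the same 4 groups as the comparisons above. It was called negative for 21 of the 35 genes and positive for 1, against 3.4% and 3.99% of all genes. The 21 were 15 of 16 sterol enzymes, SREBF2, STARD4 and 4 fatty acid genes. MVD (-3.28 ± 0.28), FDPS (-3.28 ± 0.25) and CYP51 (-2.93 ± 0.22) differed most, and the median over the sterol enzymes was -2.30, against 0.00 for all genes. EBP, at -0.30 ± 0.21, was the enzyme that did not pass. SREBF2 differed by -2.03 ± 0.25 and STARD4 by -2.49 ± 0.29. SC5D, at -1.26 ± 0.44 (adjusted p 0.0844), was the weakest call, and it was lost when any of 10 single arrays was left out (replicates 2 and 3 in -GFs medium and 1 and 2 with FGF2 of the co-cultures, and each of the 6 PA6 arrays), with adjusted p from 0.118 to 0.188. In the fatty acid branch SCD2 (-2.45 ± 0.36), FADS2 (-1.76 ± 0.23), ELOVL6 (-1.53 ± 0.26) and SCD1 (-1.43 ± 0.24) were called, and FADS1 (-0.60) and, among the regulators, INSIG2 (-0.99) passed the adjusted p alone (7.22% of all genes passed downwards). ELOVL6 depends on the probe, since the mean of its 2 probes gave -0.74 (adjusted p 0.211), and INSIG1 does so too, at -0.55 ± 0.27 for the probe used and -1.34 (adjusted p 0.00213) for the mean of its 3. FADS2 fell in the co-cultures and passed upwards in PA6 mono-cultures, while LPIN1 ran the other way, with a difference of 1.01 ± 0.24 (adjusted p 0.0128) that lost its call, at 0.90 to 0.99, when any of 6 single arrays was left out: replicates 1 and 2 of co-cultures with FGF2, replicate 3 of co-cultures in -GFs medium, replicates 1 and 2 of PA6 in -GFs medium, and replicate 1 of PA6 with FGF2. LPIN1 also lost it without background correction (0.83) and with an offset of 50 (0.94). NPC1, NPC2, ABCG1, SCAP, SREBF1, INSIG1, ACLY, ACSS2, ELOVL5 and FASN did not pass, except SCAP with the replicate block (0.53, adjusted p 0.0617). Among the other lipid genes the difference was called negative for 9 of 39, with ACSL4 (-2.68), ACAT3 (-2.22) and ACSL3 (-1.29) among them, and positive for CPT1A, which no co-culture array detected. MVK was below detection on all PA6 -GFs arrays and most co-culture arrays, so that its fitted difference depends on background values and is no bound. MVK also met the detection filter only through the PA6 arrays with FGF2. The cycling cell markers TOP2A, CCNB1, CDC20 and AURKA were called negative too, and the adipocyte markers CFD, LPL and CIDEC positive, and their part in the lipid gene differences was not tested.

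**Figure D5:**
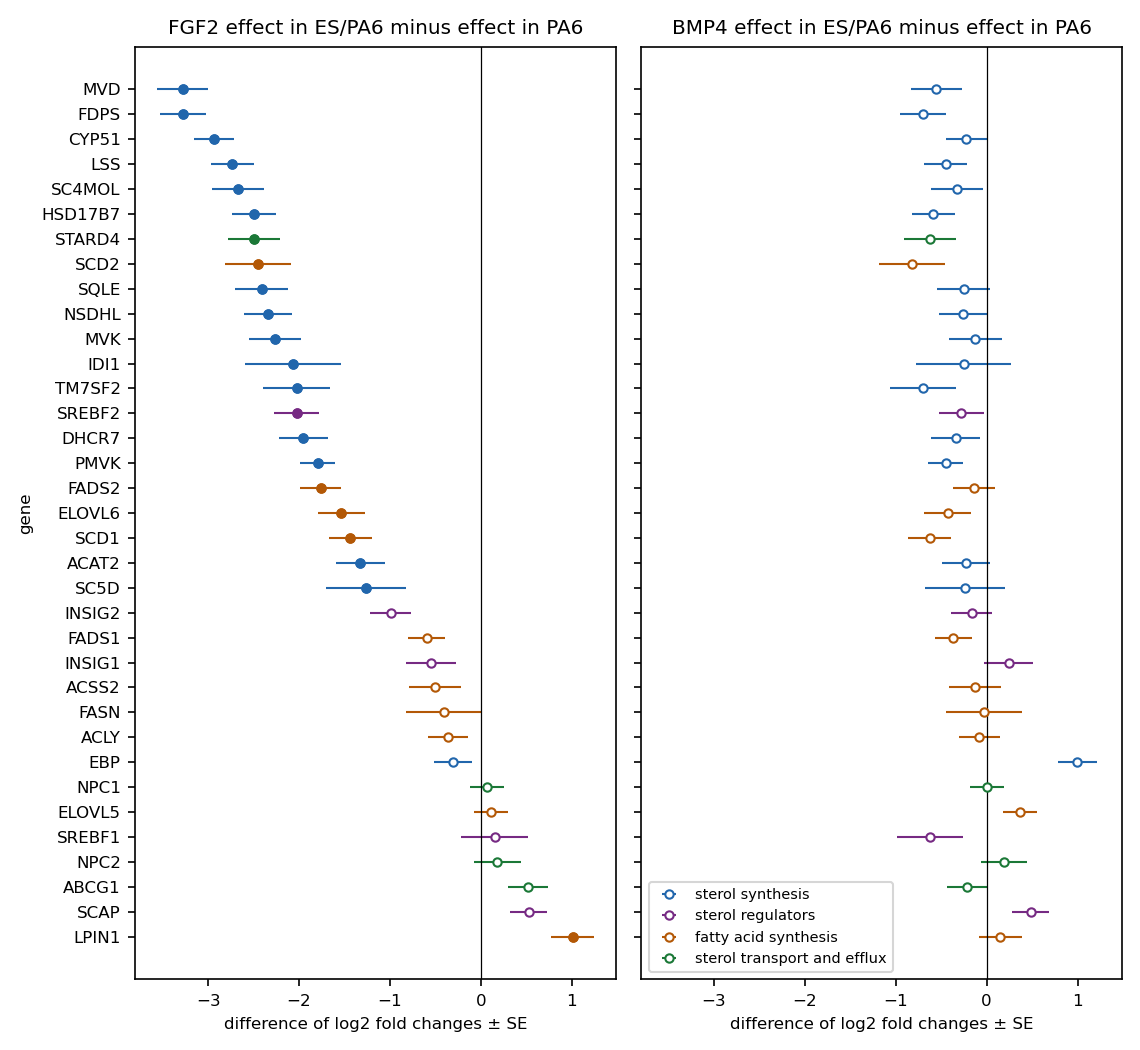
Difference of log2 fold changes ± SE, the effect in ES/PA6 co-cultures minus that in PA6 mono-cultures, for FGF2 (left) and BMP4 (right), with the 35 genes (rows) ordered by the FGF2 difference and coloured by branch; filled points are called. On the left 21 genes are filled below 0, from MVD at -3.28 to SC5D at -1.26, and LPIN1 is filled above 0; on the right none is filled and EBP lies highest at 0.998.

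In PA6 mono-cultures BMP4 called 1 of 35 genes higher and none lower (0.839% of all genes were called higher). An unadjusted p under 0.05 (limma) was more frequent, in 16 of the 35, 7 of them sterol enzymes, against 12.6% of all genes. The 1 call was SCD1, whose arrays are given above, with a rise of 1.02 ± 0.17 (adjusted p 0.00309). The rise was 0.90 without -GFs replicate 2 and 0.94 without BMP4 replicate 2, below the fold threshold in both cases. Leaving out BMP4 replicate 1 added SCD2, from 0.73 to 1.07. HSD17B7 (0.76 ± 0.17) and ELOVL6 (0.74 ± 0.18) passed the adjusted p alone upwards (2% of all genes did) and EBP downwards (-0.77 ± 0.15, where 1.84% did). The replicate block added FDPS, TM7SF2, SCD2, STARD4 and SCAP to those 4, with adjusted p of 0.0232, 0.0889, 0.0971, 0.0415 and 0.0588, and no call. HSD17B7 and ELOVL6 each have a further probe that departed from the one used under FGF2, so their values here hold for the probe used. The sterol enzymes changed by a median of 0.33 and 15 of 16 lay above 0, against a median of 0.01 for all genes. The calls among the 39 other lipid genes were DGAT2, higher by 2.39 ± 0.58, ACSL1 by 2.05 ± 0.46 and AGPAT2 by 1.21 ± 0.27, and the adipocyte markers LPL and PLIN were called higher as well. PLIN was detected only on arrays with BMP4 and met the detection filter through them alone, so its call is no independent support.

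In the co-cultures BMP4 called none of the 35 genes, and none passed the adjusted p alone (limma), with 2 at an unadjusted p under 0.05 (10.9% of all genes), while 0.31% of all genes were called higher and 0.45% lower. The changes ran from -0.39 to 0.40, with FASN lowest and ACSS2 highest. The only call among the other lipid genes was ACSL1, higher by 1.85 ± 0.46 (adjusted p 0.0741), beside the adipocyte markers ADIPOQ and CFD. The BMP4 effect did not pass as different between the kinds of culture for 34 of the 35 genes, and none was called (0.249% and 0.31% of all genes were called higher and lower). An unadjusted p under 0.05 was found for 8 of the 35, against 9.74% of all genes. With the replicate block FDPS passed too, at -0.70 (adjusted p 0.0651). EBP passed the adjusted p alone at 0.998 ± 0.21 (adjusted p 0.0653, and 0.322% of all genes passed upwards), with a BMP4 change of -0.77 ± 0.15 in PA6 mono-cultures and 0.23 ± 0.15 in the co-cultures. Without any of 5 single arrays (-GFs replicate 3 or BMP4 replicate 1 or 2 of the co-cultures, -GFs replicate 3 or BMP4 replicate 2 of PA6) the EBP difference was from 1.02 to 1.12 and would be called.

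Set against each other in PA6 mono-cultures, FGF2 gave higher levels than BMP4 for 19 called genes of 35 and lower for none, against 2.88% of all genes called higher. This comparison uses the same FGF2 and BMP4 arrays as those above. The 19 were 15 sterol enzymes, now with EBP (1.07 ± 0.15) and without SC5D (0.95 ± 0.31), SREBF2, STARD4, SCD2 and ELOVL6. MVK, which met the detection filter only through the FGF2 arrays, was among the 15. MVD (2.67 ± 0.20), CYP51 (2.36 ± 0.16) and FDPS (2.31 ± 0.18) differed most. The EBP difference joins a level above -GFs medium with FGF2 to a level below it with BMP4. ACAT2 (1.06) lost its call without FGF2 replicate 1 (0.999) or BMP4 replicate 3 (0.91), ELOVL6 (1.02) without FGF2 replicate 1 (0.89) or 2 (0.98), and SCD2 (1.10) without BMP4 replicate 1 (0.76). HSD17B7, at 1.95 ± 0.17 for the probe used, was 0.98 for the mean of its 2 probes. INSIG1, INSIG2, ELOVL5, FADS2 and SC5D passed the adjusted p alone upwards, from 0.53 to 0.99 (9.56% of all genes did, called genes included), and SREBF1 (-0.68) and LPIN1 (-0.65) downwards (10.7%). SREBF1, the factor tied more to fatty acids, was thus opposite to SREBF2 in this comparison, with an adjusted p of 0.0904 that became 0.105 with the replicate block. Against -GFs medium SREBF1 was at -0.04 with FGF2 and at 0.64 with BMP4, and neither passed (limma, adjusted p 0.959 and 0.272). Of the 39 genes on the wider list, 7 were called higher with FGF2 than with BMP4, ACSL3, ACSL4, ACAT3 and VLDLR among them. Called lower were 6, DGAT2 (-3.60), ACSL1 (-2.78), PNPLA2 (-1.73), CPT1A (-1.43), AGPAT2 (-1.39) and GPAM (-1.02), and the median of the 39 was -0.01. All 9 adipocyte markers lay lower with FGF2 and 7 of them were called lower, where 2.94% of all genes were. PLIN, which met the detection filter only through arrays with BMP4, was among the 7. In the co-cultures FGF2 against BMP4 called FADS2 lower (-1.01 ± 0.16, and 1.03% of all genes). ABCG1 passed upwards by the adjusted p alone (4.21% of all genes passed), at least 1.07-fold since no BMP4 array detected it. ABCG1 met the detection filter only through these FGF2 arrays, so its pass is a description. None of the other 33 passed, except SQLE with the replicate block (-0.47, adjusted p 0.087). FADS2 was -0.93 without FGF2 replicate 1 and -0.92 without BMP4 replicate 3.

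Without growth factors the co-cultures already stood above PA6 mono-cultures for most of these genes. 18 of 35 were called higher and 2 lower, against 19.4% and 19.5% of all genes, and the median change was 1.02, against -0.11 for all genes. The 5 highest were FDPS (3.13 ± 0.18), ELOVL6 (3.02 ± 0.18), LSS (2.87 ± 0.17), MVD (2.85 ± 0.20) and STARD4 (2.63 ± 0.20), and the arrays of both cultures did not overlap for any of them. By branch, 11 of 16 sterol enzymes, SREBF2 of the regulators, 5 of 10 fatty acid genes and STARD4 of the carriers were called higher. The 2 called lower were SCAP (-1.11 ± 0.14), which read 9.07, 9.25 and 8.97 in the co-cultures against 10.05, 10.27 and 10.29, and NPC2 (-1.002 ± 0.18), which read 11.89, 11.70 and 11.51 against 12.88, 12.67 and 12.55. The NPC2 change was -0.91 without co-culture replicate 3 or without PA6 replicate 1, below the fold threshold, and TM7SF2, called higher at 1.02, was 0.85, 0.91 and 0.97 without co-culture replicate 3, PA6 replicate 1 and PA6 replicate 2. EBP (-0.60 ± 0.15), LPIN1 (-0.91 ± 0.17), NPC1 (-0.67 ± 0.13), SREBF1 (-0.57 ± 0.26), INSIG2 (-0.46 ± 0.16) and ELOVL5 (-0.41 ± 0.13) passed the adjusted p alone on the lower side. ABCG1 passed upwards but no change is given, as it was detected on 1 of the 3 co-culture arrays and on no PA6 array. All 7 cycling cell markers and all 9 pluripotent cell markers were called higher in the co-cultures and 6 of 8 stromal cell markers lower, and their part in the lipid gene levels was not tested. SREBF2 in PA6 mono-cultures with FGF2, at 10.07, 9.95 and 10.37, entered the range of the -GFs co-cultures, 10.11, 10.40 and 10.53, with replicate 3 alone. STARD4 entered its range with replicate 1 alone, and MVD lay at the upper end of its range or above. ELOVL6, at 10.52, 10.34 and 9.92, stayed below its co-culture arrays, 11.93, 11.36 and 11.24. CYP51, HSD17B7 and SC5D with FGF2 lay above their -GFs co-culture arrays, at 12.30, 12.10 and 12.13 against 11.32, 11.25 and 11.30, 11.72, 11.57 and 11.39 against 10.89, 10.91 and 10.76, and 8.55, 8.33 and 8.48 against 6.50, 7.03 and 7.24. The same held for ACAT2, MVK, SQLE, TM7SF2, SC4MOL, NSDHL and EBP, with MVK undetected on most co-culture arrays. IDI1 and DHCR7 overlapped theirs, and FDPS, LSS and PMVK stayed below. These last levels are set side by side with no test.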

How the data were processed

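RNA from 18 cultures was hybridised to Illumina MouseWG-6 v2.0 BeadChips, 1 array each. The deposited table holds bead summary intensities, which by their values were not normalised, and a detection p per probe and array, exported by the authors with GenomeStudio (2011.01 in the submitters' processing notes). 5 stray lines were left out of its 45281 probes. The study's methods name cubic spline normalisation, which these deposited intensities do not carry.

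The intensities were normalised with limma 3.58.1 (neqc, offset 16, quantile) in R 4.3.3 and are given as log2 values. The deposited intensities ran from 55.5 to 72879. Probes detected (p under 0.05) on at least 3 arrays were kept (22987), and the probe with the largest mean stood for its gene, which left 16446 genes. One model of 6 group means over all 18 arrays (12 residual degrees of freedom) was fitted with lmFit and eBayes, and p-values were adjusted by Benjamini-Hochberg over all genes. The thresholds (adjusted p under 0.1, log2 fold change over 1) and the choice of probe follow the methods. Array number limits the precision, and no array pair was identical. The scripts were tested on simulated data. Where a probe was undetected on every array of a group, a change between 2 groups is given as at least a fold, against the lowest detected signal, when every array of the other group detected it, and otherwise not at all.

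Replicate numbers in the labels mark biological replicates with a well for each condition. Deviations from group means correlated at 0.33 to 0.52 between same-numbered co-cultures (9 pairs) and at 0.06 to 0.16 between same-numbered PA6 cultures (9 pairs), so that the fit with replicate as a block is given where it changes whether a gene passes. All 23 genes called in a growth factor comparison or a difference of effects are given on every array, the rest by their change, range or count. The genes and lists were chosen with earlier results of these data known. Promoters and their motif matches come from RefSeq sequences of GRCm38.p6, and 27 of the 35 genes had one. Comparisons against the same -GFs arrays share those arrays. Some genes of the wider lipid list are not reported here.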

Additional observations from a re-analysis of the deposited data

Results flagged for a closer look

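The difference of the FGF2 effects between the kinds of culture (ES/PA6 minus PA6, log2) passed its own test for 22 of the 35 genes. In sterol synthesis the differences were ACAT2 -1.32, MVK -2.26, PMVK -1.79, MVD -3.28, IDI1 -2.06, FDPS -3.28, SQLE -2.41, LSS -2.73, CYP51 -2.93, TM7SF2 -2.03, SC4MOL -2.67, NSDHL -2.34, HSD17B7 -2.50, SC5D -1.26, DHCR7 -1.95. In fatty acid synthesis they were ELOVL6 -1.53, SCD1 -1.43, SCD2 -2.45, FADS2 -1.76, LPIN1 1.01. Among regulators and carriers they were SREBF2 -2.03 and STARD4 -2.49. All but LPIN1 were negative, and the MVK value is the fitted one, with MVK below detection on all PA6 -GFs arrays and most co-culture arrays. MVK met the detection filter only through the PA6 arrays with FGF2, and HSD17B7 and ELOVL6 are given for the probe used. Groups of 3 arrays are too small for the test of single outlying samples, so none was run.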

How the results depend on the processing

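With FGF2 in PA6 mono-cultures, 20 of 35 genes were called, 16 to 26 over the alternatives and 20 to 21 with an array left out, and 19 of the 20, all but SC5D, were called under every alternative that tested them. The counts for FGF2 against BMP4 in PA6 mono-cultures (19) ran from 13 to 26, for co-cultures against mono-cultures (20) from 16 to 29 and for the difference of FGF2 effects (22) from 18 to 24, and 11, 14 and 19 of these were called under every alternative. No called change turned its direction. The single calls were lost under some alternatives. FADS2, the 1 gene called for FGF2 against -GFs and against BMP4 in the co-cultures, gave way to 0 calls without background correction, with median scaling, with an offset of 50 and with the mean of the kept probes, and each count ran from 0 to 1 when an array was left out. The 1 call for BMP4 in PA6 mono-cultures became 0 without background correction and ran from 0 to 2 when an array was left out. With no fold threshold these 3 comparisons gave 2, 2 and 4 genes. The difference of BMP4 effects had 0 calls, 1 with no fold threshold and 0 to 1 when an array was left out. BMP4 in the co-cultures gave 0 under every alternative. The cause was not tested. The replicate block changed no call among the 35 genes (20 with FGF2 in PA6 mono-cultures and 22 for the difference of FGF2 effects), and over all genes it gave 215 calls in place of 125 for BMP4 in the co-cultures and 305 in place of 92 for the difference of BMP4 effects. Leaving out -GFs replicate 2 of the co-cultures gave 52 and 42. Over all genes, leaving out background correction gave 274, 68, 533 and 135 calls for FGF2 and BMP4 in the co-cultures and in PA6 mono-cultures, in place of 550, 125, 867 and 232, and 246 and 604 in place of 469 and 957 for FGF2 against BMP4 in both, and 700 in place of 1216 for the difference of FGF2 effects. Detection on all 18 arrays, which tests fewer genes, gave 459 for FGF2 in PA6 mono-cultures and 125 in the co-cultures. Fitting the co-cultures alone gave 10 for BMP4. MVK, IDI1, TM7SF2, DHCR7, FASN and ABCG1 were not detected on every PA6 -GFs array, and their changes there depend on values near background.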
